A study of Homo sapiens with 6 samples.

Results

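The integrin and laminin chains of HT29 cells were examined after knockdown of ALDOA, the glycolytic enzyme aldolase A. Members were taken by gene symbol: ITGA or ITGB followed by a digit, ITGAV, ITGAE, ITGAL, ITGAM and ITGAX, and LAMA, LAMB or LAMC followed by a digit. The chains described here are 36 of the 28278 gene symbols listed, of which 25 encode integrin chains and 11 encode laminin chains. Another 11 symbols with the same beginning were left out, namely antisense transcripts, the pseudogene LAMB2P1, the binding proteins ITGB1BP1, ITGB1BP2 and ITGB3BP, and ITGAD. HT29 is a human colorectal adenocarcinoma line of epithelial morphology. Its cells received siRNA against ALDOA (siALDOA) or a scrambled siRNA (siControl), and RNA-Seq was performed on 3 biological replicates of each at 48 h. The labels do not say how many siRNAs against ALDOA were used, and they name no untransfected cells.

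Integrins are cell surface receptors made of an α chain and a β chain, and the pairing decides which matrix protein is bound. Laminins are secreted trimers of an α, a β and a γ chain that form the sheet of the basement membrane on which epithelial cells rest. In the colon epithelium the laminin receptor made of ITGA6 and ITGB4 anchors keratin filaments to the basement membrane, while receptors that contain ITGB1 connect collagens and laminins to the actin cytoskeleton.

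The libraries held from 27277538 to 33237914 counts on genes, and 1 CPM (the unit of counts scaled to library size, with TMM factors) stood for 27.8 to 33 counts. Ribosomal RNA genes took 7.71% to 17.4% of the counts, with 13.1% in siALDOA replicate 1 and 17.4% and 15.3% in siControl replicates 1 and 2. ALDOA fell from 632 ± 38.2 CPM in siControl to 289 ± 13.7 CPM after the knockdown (SD, n = 3, adjusted p = 6.95e-11). Of 10 markers of colorectal epithelium, 9 were detected and tested in the edgeR comparison described below. At its threshold, an adjusted p below 0.05, 2 of the 9 passed, beside 9.66% of all tested genes. The summed level of the 10 markers was 9471 to 9802 CPM in the knockdown libraries and 10034.5 to 10595 CPM in the controls. Its part in the results was not tested. Markers of leukocytes reached at most 11 counts, those of endothelium at most 19 counts and those of fibroblasts at most 77 counts in any library. A count of 0 was not read as absence, because genes such as LGALS4, a marker of this epithelium, and ZYX, an adhesion protein of most cells, were also listed at 0 in every library.

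Of the 36 chains, 24 passed the filter on low counts and were tested. To compare levels between genes, the CPM was divided by the length of the reference mRNA of each gene in kb. On this scale ITGB1, the β chain with the most α partners, had the highest level, with 128 ± 2.90 CPM per kb (SD, n = 3) in siControl. ITGA6 followed with 74.0 ± 0.547 CPM per kb, and ITGB4 with 63.3 ± 3.58 CPM per kb and ITGA3 with 62.6 ± 2.20 CPM per kb did not differ beyond their spread. ITGB5, which pairs with ITGAV, stood at 57.0 ± 1.26 CPM per kb and ITGAV itself at 26.7 ± 1.62 CPM per kb. The collagen-binding α chains were lower, with 18.1 ± 1.45 CPM per kb for ITGA2 and 5.01 ± 0.447 CPM per kb for ITGA1.

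The siControl level was 11.9 ± 0.432 CPM per kb for ITGB6 and 3.45 ± 0.299 CPM per kb for ITGB8, β chains that pair with ITGAV. Among laminins, LAMA5 supplied 96.6% ± 0.221 (SD, n = 3) of the summed α chain level per kb in siControl and 96.9% ± 0.125 with siALDOA, and LAMA3 supplied 3.27% ± 0.307 and 2.88% ± 0.187. LAMB3 held 59.7% ± 1.62 of the β chain level in siControl, ahead of LAMB1 with 24.3% ± 1.03 and LAMB2 with a mean of 16.0%. LAMC1, the γ chain of most laminins, stood at 9.23 ± 0.426 CPM per kb and did not differ from LAMB2, at 9.43 ± 0.858 CPM per kb, beyond their spread. The order rests on the length used. With the merged length of all annotated exons, ITGA6 at 64.5 CPM per kb led ITGB4 at 55.2 CPM per kb and ITGB1 fell to 32.9 CPM per kb, and LAMB2 at 7.82 CPM per kb lay above LAMB1 at 4.34 CPM per kb.

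**Figure D1:**
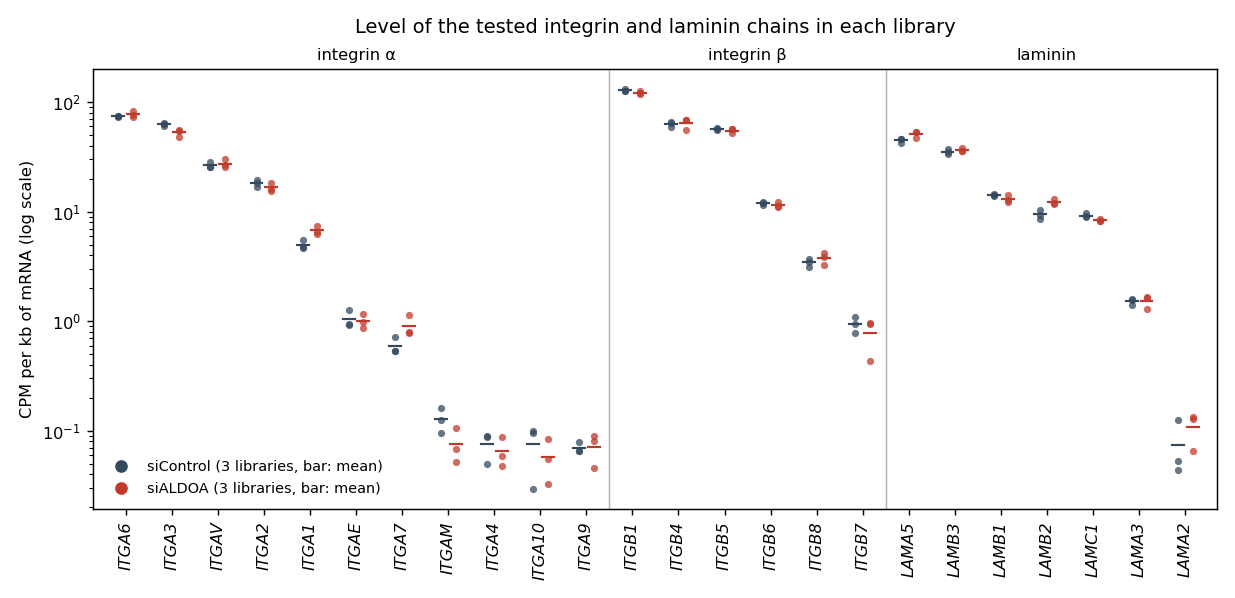
Level of each of the 24 tested chains in every library, in CPM per kb of reference mRNA on a log scale. Points are the 3 libraries of each group and bars their mean. ITGB1 and ITGA6 lie at the top. ITGA1, LAMB2, ITGA7 and LAMA5 are higher, and ITGA3 and LAMC1 lower, in all siALDOA libraries, of which ITGA7, LAMA5 and LAMC1 did not pass the threshold.

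To find which chains responded to the knockdown, the siALDOA and siControl libraries were compared with edgeR's quasi-likelihood test over all 15307 tested genes with Benjamini-Hochberg adjustment. At an adjusted p below 0.05, 3 of the 24 chains changed, a share of 12.5%. ITGA1 and LAMB2 rose, and ITGA3 fell. Among all tested genes 9.66% changed, 4.36% being higher and 5.29% lower. At the unadjusted P < 0.01 used in the study LAMA5 joined them, so that 4 of 24 chains passed, against 12.5% of all tested genes. All siALDOA libraries lay on the same side of every siControl library in 6 of the 24 chains, a share of 25.0%, beside 27.7% of all tested genes. The log2 fold changes of the chains ran from -0.74 for ITGAM to 0.60 for ITGA7, neither of which passed. Their median was -0.016, beside 0.0016 for all tested genes, with 12 chains above 0 and 12 below. The sign of this median was not stable. It ranged from -0.052 (without siControl replicate 1) to 0.0072 (without siControl replicate 3) over the 6 analyses that omitted a library, and was 0.0068 without the filter on low counts, 0.031 with at least 10 counts required in every library and 0.057 with library totals only, where the median of all tested genes was 0.075. All p-values describe the spread between these replicates.

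**Figure D2:**
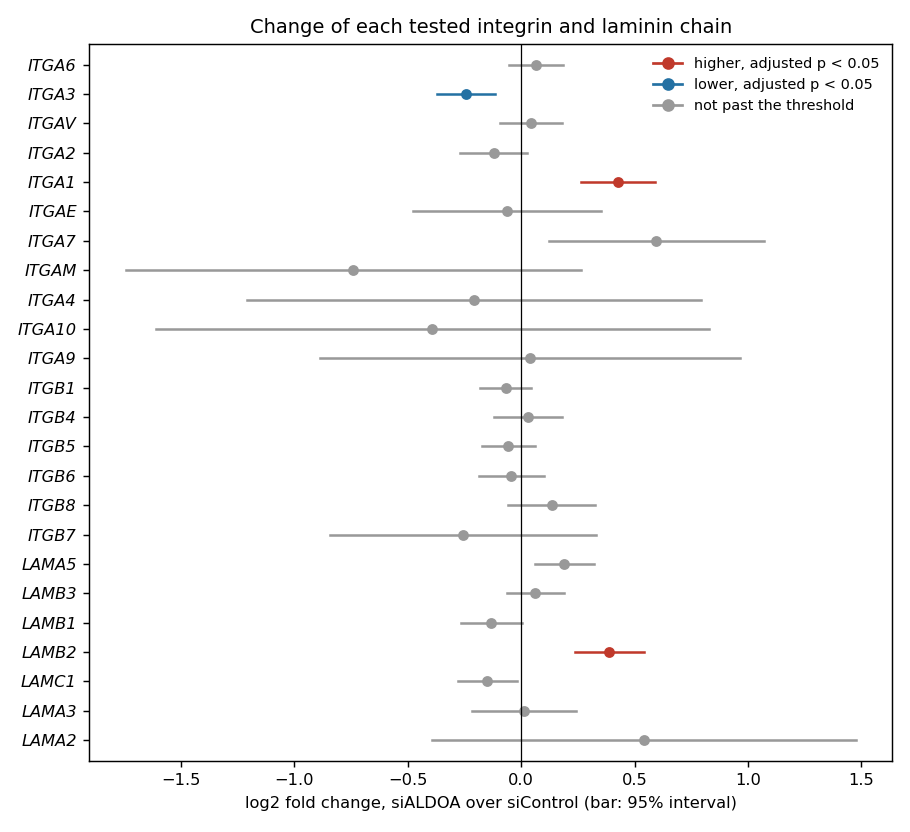
Log2 fold change of the 24 tested chains with its 95% interval. Red marks ITGA1 and LAMB2, which rose, blue marks ITGA3, which fell, and grey marks the 21 chains that did not pass. The interval of the low chain ITGA10 runs from -1.61 to 0.83, and that of the abundant ITGB1 from -0.18 to 0.044.

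ITGA1 encodes the α chain of a collagen receptor that prefers the collagen IV of basement membranes. The gene (ENSG00000213949) occupies bases 52787916 to 52959209 of chromosome 5 in hg38, plus strand, and its reference transcript has 29 exons. Its level was 79.8, 70.4 and 66.7 CPM in siALDOA replicates 1, 2 and 3 and 59.3, 51.6 and 50.5 CPM in siControl replicates 1, 2 and 3. All siALDOA libraries lay above every siControl library. The log2 fold change was 0.43 (standard error 0.077, adjusted p = 0.00101), a rise of 34.4%. It passed in all 15 alternative analyses tried, with values from 0.35 to 0.50.

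The neighbouring gene ITGA2, on the plus strand of chromosome 5 from 52989340 to 53094779, encodes the other main collagen-binding α chain of epithelia. ITGA2 stood at 144, 127 and 121 CPM in the siALDOA libraries and at 153, 143 and 131 CPM in the siControl libraries, and the groups overlapped. Its log2 fold change was -0.12 with a 95% interval from -0.27 to 0.027 (adjusted p = 0.324). The count of ITGA1 relative to ITGA2 was 0.554, 0.555 and 0.550 with siALDOA and 0.387, 0.362 and 0.387 with siControl. This ratio needs no scaling between libraries, and it was 1.46 times higher with siALDOA.

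The start of ITGA1 is shared. In RefSeq the promoter window of ITGA1 is identical to that of PELO, a ribosome rescue factor whose gene begins at the same base and ends within ITGA1. The 250 bases before this start are shown because ITGA1, which passed the threshold, and PELO, which did not, share them. The window of ITGA2 follows for comparison, and 26 of the 36 chains had a window in this table. Both are printed 5′ to 3′ on the plus strand of GRCh38.p14, with chr5:52787666-52787915 for ITGA1 and chr5:52989102-52989351 for ITGA2. The windows end at RefSeq starts, and that of ITGA2 ends a few bases inside the GENCODE bounds given above for this gene. Capitals mark the GC box GGGCGG on either strand.
ITGA1: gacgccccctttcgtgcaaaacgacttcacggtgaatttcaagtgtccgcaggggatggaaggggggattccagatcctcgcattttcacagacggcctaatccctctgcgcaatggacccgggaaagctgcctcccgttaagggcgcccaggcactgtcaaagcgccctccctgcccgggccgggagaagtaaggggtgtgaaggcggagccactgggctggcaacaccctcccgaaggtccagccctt
ITGA2: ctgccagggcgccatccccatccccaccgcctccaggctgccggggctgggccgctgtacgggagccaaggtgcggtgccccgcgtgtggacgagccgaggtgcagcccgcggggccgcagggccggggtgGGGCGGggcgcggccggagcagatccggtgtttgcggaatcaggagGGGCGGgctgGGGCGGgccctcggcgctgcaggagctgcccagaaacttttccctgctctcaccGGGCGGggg

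The window of ITGA1 held 0 GC boxes and that of ITGA2 held 4, and the GC content was 62.0% and 76.4%. Of 34943 promoter windows of this length 42.5% held a GC box. The AP-1 letters TGANTCA occurred in neither window on either strand, and in 6.59% of all windows. The TEAD letters GGAATG, present in 11.9% of all windows, were also missing from both. The CCAAT box, present in 32.0% of all windows, and the TATA box in the form TATAAA, present in 10.8%, did not occur either. PELO stood at 66.0, 65.8 and 62.4 CPM in the siALDOA libraries and at 67.0, 68.5 and 69.0 CPM in the siControl libraries. All siALDOA libraries were the lower ones, by a narrow margin. Its log2 fold change was -0.074 with a 95% interval from -0.20 to 0.054 (adjusted p = 0.514). The ratio of ITGA1 to PELO counts was 1.21, 1.07 and 1.07 with siALDOA and 0.886, 0.754 and 0.733 with siControl, 1.41 times higher with siALDOA. The genes share 499 bases of annotated exon on the same strand, 2.69% of the merged exons of ITGA1, where reads cannot be assigned to either. The exons of ITGA1 also overlap the processed pseudogene RPL17P21 on the same strand over 571 bases (3.08%) and ITGA2-AS1 on the opposite strand over 1385 bases (7.47%).

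ITGA3 encodes the α chain of a receptor for LAMA5 and LAMA3 laminins. The gene (ENSG00000005884) occupies bases 50055968 to 50090481 of chromosome 17, plus strand. Its level was 236, 269 and 272 CPM with siALDOA and 310, 294 and 314 CPM with siControl, so that each siALDOA library lay below every siControl library. The lowest value belonged to siALDOA replicate 1. The log2 fold change was -0.24 (standard error 0.062, adjusted p = 0.0148), a change of -15.4%. The call was lost without siControl replicate 3 (-0.22, adjusted p = 0.0930) and with scaling by library totals only (-0.17, adjusted p = 0.264).

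ITGA6, which pairs with ITGB4 or ITGB1 to bind laminin, was at 481, 429 and 442 CPM with siALDOA and at 433, 427 and 432 CPM with siControl. The groups overlapped, and siALDOA replicate 1 was the highest library. Its log2 fold change was 0.064 with a 95% interval from -0.054 to 0.18 (adjusted p = 0.542). The ratio of ITGA3 to ITGA6 counts was 0.490, 0.627 and 0.616 with siALDOA and 0.716, 0.688 and 0.727 with siControl, which gave 0.808 times the siControl ratio. ITGA7, a laminin-binding chain best known from muscle, was at 4.71, 3.29 and 3.24 CPM with siALDOA and at 2.98, 2.23 and 2.22 CPM with siControl. These groups did not overlap, but ITGA7, at 0.60 on the log2 scale (standard error 0.23), missed the threshold (adjusted p = 0.107).

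No β chain passed. Of the 6 tested, 0 had an adjusted p below 0.05 by edgeR (9.66% of all tested genes), 0 an unadjusted p below 0.05 (23.6%), and 0 passed with DESeq2 (12.6%) or limma-voom (9.22%). With so few chains these counts do not set the β chains apart from all genes. ITGB1 was at 473, 450 and 448 CPM with siALDOA and at 477, 490 and 469 CPM with siControl, and its log2 fold change was -0.068 with a 95% interval from -0.18 to 0.044. ITGB4, whose long cytoplasmic tail binds plectin, was at 331, 409 and 404 CPM with siALDOA and at 350, 380 and 390 CPM with siControl. Here siALDOA replicate 1 was the lowest of all libraries and the other siALDOA replicates the highest. The log2 fold change of ITGB4 was 0.030 with an interval from -0.12 to 0.18.

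ITGB5 was at 231, 250 and 250 CPM with siALDOA and at 247, 254 and 259 CPM with siControl, a log2 fold change of -0.056 with an interval from -0.17 to 0.061. ITGB6, the β chain of an epithelial receptor that activates TGF-β, changed by -0.043 with an interval from -0.18 to 0.099. ITGB8, which has the same ligand, changed by 0.13 with an interval from -0.058 to 0.33. ITGAV, the α partner of ITGB5, ITGB6 and ITGB8, was at 212, 180 and 189 CPM with siALDOA and at 201, 180 and 182 CPM with siControl. Its log2 fold change was 0.043 with an interval from -0.095 to 0.18, and the groups overlapped. With scaling by library totals only, the fold changes of ITGB1, ITGB5 and ITGB6 turned positive, at 0.0050, 0.017 and 0.029.

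Of the 7 tested laminin chains 1 changed, a share of 14.3% beside 9.66% of all tested genes. LAMB2, the β chain of laminin-521, is encoded at bases 49121114 to 49133118 of chromosome 3, minus strand (ENSG00000172037). It was at 66.9, 69.0 and 75.0 CPM with siALDOA and at 58.8, 49.1 and 53.2 CPM with siControl, and no libraries overlapped. The log2 fold change was 0.39 (standard error 0.073, adjusted p = 0.00142), a rise of 31.0%, and it passed in all 15 alternatives, with values from 0.33 to 0.46. Its pseudogene LAMB2P1 had 2 to 22 counts per library.

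LAMB1, which takes the place of LAMB2 in laminin-511, was at 79.7, 69.3 and 71.9 CPM with siALDOA and at 82.7, 79.9 and 79.3 CPM with siControl. The groups overlapped through siALDOA replicate 1 alone. Its log2 fold change was -0.13 with a 95% interval from -0.27 to 0.0054 (adjusted p = 0.234). The ratio of LAMB2 to LAMB1 counts was 0.839, 0.996 and 1.04 with siALDOA and 0.711, 0.614 and 0.671 with siControl, 1.44 times higher with siALDOA. On the level per kb of mRNA, the share of LAMB2 among β chains was 19.9% ± 0.762 with siALDOA against 17.3%, 15.4% and 15.4% in the siControl libraries, and that of LAMB1 was 21.0% ± 1.64 against 24.3% ± 1.03.

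The windows before the RefSeq starts of LAMB2 and LAMB1 are shown because LAMB2, which rose, and LAMB1, which did not pass, take the same place in the trimer. They are printed 5′ to 3′ on the minus strand of GRCh38.p14, with chr3:49133051-49133300 for LAMB2 and chr7:108003162-108003411 for LAMB1. These RefSeq starts lie inside the GENCODE bounds of both genes, so the end of each window falls within those bounds. Capitals again mark GC boxes, on either strand.
LAMB2: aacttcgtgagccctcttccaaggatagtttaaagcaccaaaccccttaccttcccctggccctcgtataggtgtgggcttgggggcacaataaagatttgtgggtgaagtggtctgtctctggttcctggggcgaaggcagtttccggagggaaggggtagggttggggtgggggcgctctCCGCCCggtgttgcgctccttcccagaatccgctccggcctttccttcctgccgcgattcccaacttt
LAMB1: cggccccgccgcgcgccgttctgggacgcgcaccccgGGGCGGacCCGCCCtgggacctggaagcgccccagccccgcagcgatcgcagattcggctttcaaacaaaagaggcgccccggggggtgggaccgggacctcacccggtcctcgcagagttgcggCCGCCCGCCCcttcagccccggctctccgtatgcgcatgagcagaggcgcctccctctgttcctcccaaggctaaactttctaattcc

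The window of LAMB2 held 1 GC box at a GC content of 58.4%, and that of LAMB1 held 4, of which a pair overlap, at 70.4%. The AP-1, TEAD, CCAAT and TATA motifs did not occur in them. A match is a description of the letters and was not tested for function.

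LAMA5, the α chain of laminin-511 and laminin-521, was at 538, 609 and 613 CPM with siALDOA and at 532, 489 and 522 CPM with siControl. All siALDOA libraries lay above every siControl library, siALDOA replicate 1 by the least. The difference of LAMA5, 0.19 on the log2 scale (standard error 0.062), missed the threshold (adjusted p = 0.0573). It passed in 8 of 15 alternatives, DESeq2 and limma-voom among them, but in 1 of the 6 that each left out a library, the one without siALDOA replicate 1. LAMC1, the γ chain of the same trimers, was at 65.1, 65.3 and 67.8 CPM with siALDOA and at 71.7, 70.8 and 77.1 CPM with siControl. These groups did not overlap either, yet LAMC1, at -0.15 on the log2 scale (standard error 0.063), missed the threshold (adjusted p = 0.151). The ratio of LAMC1 to LAMA5 counts was 0.121, 0.107 and 0.111 with siALDOA and 0.135, 0.145 and 0.148 with siControl, 0.792 times the siControl ratio. The ratio of LAMB1 to LAMA5 was 0.148, 0.114 and 0.117 with siALDOA and 0.155, 0.163 and 0.152 with siControl, also without overlap.

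LAMA3 and LAMB3, an α and a β chain that epithelia assemble into laminins of their anchoring structures, did not pass. LAMA3 was at 13.8, 17.3 and 17.8 CPM with siALDOA and at 14.9, 16.5 and 17.0 CPM with siControl, a log2 fold change of 0.011 with an interval from -0.22 to 0.24. LAMB3 was at 144, 144 and 153 CPM with siALDOA and at 140, 134 and 149 CPM with siControl, a log2 fold change of 0.062 with an interval from -0.063 to 0.19. Both sets of libraries overlapped. The count of LAMB3 relative to LAMA3 was 1.04 times the siControl ratio, with overlapping groups.

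Ratios were compared for 10 pairs of chains and for 4 pairs added after their values had been seen, namely ITGA1 to PELO, ITGA1 to ITGA2, ITGA3 to ITGA6 and LIMS1 to ILK. The groups did not overlap in 3 of the 10 pairs, LAMB1 to LAMA5, LAMC1 to LAMA5 and LAMB2 to LAMB1, nor in the 4 added pairs, whose separation had been seen when they were chosen. Each of these had p = 0.1 in a two-sided exact permutation test, the smallest that this test can give with 3 libraries against 3, and 0.2 after Benjamini-Hochberg adjustment over the 14 pairs. This test therefore could not reach 0.05 for any ratio, and the added pairs are a description. Besides the pairs given above, the ratios of ITGB4 to ITGA6, ITGB4 to ITGB1, ITGB6 to ITGAV, ITGB5 to ITGAV, ITGA2 to ITGB1 and ITGA3 to ITGB1 overlapped, with log2 differences from -0.18 to 0.094. The ratio of ITGB4 to ITGA6 was 0.690 in siALDOA replicate 1 and 0.954 and 0.914 in the other siALDOA libraries, and 0.808, 0.891 and 0.904 in siControl.

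**Figure D3:**
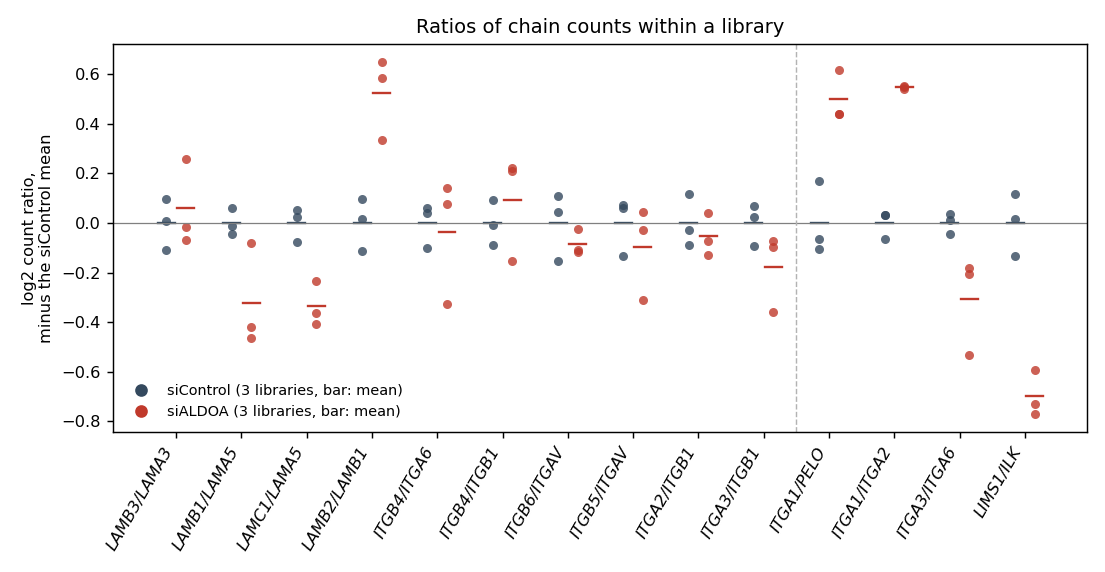
Log2 ratio of the counts of 2 genes within each library, minus the siControl mean of that ratio. Points are libraries and bars group means, and the 4 pairs right of the dashed line were added after their values had been seen. The groups do not overlap for LAMB2/LAMB1, ITGA1/PELO and ITGA1/ITGA2, which are higher with siALDOA. Nor do they for LAMB1/LAMA5, LAMC1/LAMA5, ITGA3/ITGA6 and LIMS1/ILK, which are lower.

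The other tested chains were low. ITGAE, the α chain that binds E-cadherin on intraepithelial lymphocytes, averaged 3.81 ± 0.546 CPM after the knockdown against 3.97 ± 0.737 CPM in controls (SD, n = 3), and ITGB7, its β partner, averaged 2.20 ± 0.846 against 2.63 ± 0.421 CPM. The merged exons of ITGB7 overlap those of ZNF740 on the opposite strand over 42.3% of their length, and those of ITGA4 overlap CERKL over 26.4%. ITGAM, ITGA4, ITGA9 and ITGA10 had mean levels from 0.293 to 0.599 CPM, and LAMA2 averaged 1.05 ± 0.365 CPM against 0.720 ± 0.434 CPM in controls. None of these passed by edgeR or limma-voom or had an unadjusted p below 0.05, DESeq2 gave no adjusted p for ITGAM, ITGA4, ITGA9, ITGA10 and LAMA2, and their intervals were wide, as from -1.74 to 0.26 for ITGAM. The remaining 12 chains had at most 8 counts in any library and were not tested. Of these, ITGA8, ITGAL and LAMA4 were listed at 0 in all libraries, and ITGA5, ITGA11, ITGA2B, ITGAX, ITGB2, ITGB3, LAMA1, LAMB4 and LAMC3 had from 0 to 8 counts.

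To place the chains beside the proteins they act with, 89 genes of adhesion were listed by role, of which 64 were tested. At an adjusted p below 0.05, 5 rose and 10 fell, a share of 23.4% beside 9.66% of all tested genes, and the median log2 fold change was -0.081. The list was drawn up with earlier results known. Of 23 tested adaptors of the integrin tail and its link to actin, 3 rose and 6 fell. PTK2, which encodes focal adhesion kinase, was the only one of 7 tested kinase and Rap1 genes to pass, and fell by 0.46 on the log2 scale (standard error 0.056, adjusted p = 9.56e-06), from 340 ± 12.4 to 247 ± 8.22 CPM (SD, n = 3). FLNA, which encodes an actin crosslinker that binds β tails, fell by 0.49 (standard error 0.071, adjusted p = 9.28e-05). ITGB1BP1, whose product competes with talin for the tail of ITGB1, fell by 0.44 (standard error 0.067, adjusted p = 1.74e-04), and 33.2% of its merged exons overlap ASAP2 on the opposite strand. PTK2, FLNA and ITGB1BP1 passed in all 15 alternatives.

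The complex of ILK, PINCH and parvin, which sits under β chains, moved in both directions. LIMS1, which encodes PINCH, fell by 0.49 (adjusted p = 0.00115) and LIMS2 by 0.37 (adjusted p = 0.00162), and both passed in all 15 alternatives. LIMS1 has near-identical copies, so reads may be shared between them. PARVA fell by 0.19 (adjusted p = 0.0463) and ILK rose by 0.21 (adjusted p = 0.0385), and each passed in 1 of the 6 analyses that left out a library. The merged exons of ILK overlap those of TAF10 on the opposite strand over 68.1% of their length, and reads from these genes cannot be told apart there. The ratio of LIMS1 to ILK counts was 0.274, 0.242 and 0.249 with siALDOA and 0.449, 0.418 and 0.377 with siControl. Talin, the main activator of integrins, did not pass, with a log2 fold change of -0.018 for TLN1. FERMT3, a kindlin mostly of blood cells, fell by 0.59 (adjusted p = 0.0174) at 6.56 CPM in siControl. The more abundant kindlin FERMT1, at 181 CPM in siControl, changed by -0.12 and did not pass (adjusted p = 0.207). The adaptor CRK fell by 0.20 (adjusted p = 0.0428). TNS2 and TNS4, tensins that bind β tails, rose by 0.29 and 0.21 (adjusted p = 0.0223 and 0.0446). The tensins TNS1 and TNS3 changed by -0.014 and -0.11 and did not pass. CRK passed in 1, TNS2 and TNS4 in 2 and FERMT3 in 4 of the 6 analyses that left out a library.

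On the side of the basement membrane 0 of 7 tested genes passed by edgeR (9.66% of all tested genes), 1 had an unadjusted p below 0.05 (23.6%) and 1 passed with DESeq2 (12.6%) and with limma-voom (9.22%), counts near those shares. This was AGRN in each case, named after its values were seen, with a log2 fold change of 0.20 (adjusted p = 0.134 by edgeR). BCAM, an adhesion molecule that binds LAMA5, rose by 0.21 (adjusted p = 0.0388), from 205 ± 3.31 to 238 ± 22.7 CPM (SD, n = 3), and passed in 1 of the 6 analyses that left out a library. DAG1, another laminin receptor, changed by -0.022 without passing. PLEC, which encodes the plectin that binds ITGB4, fell by 0.24 (adjusted p = 0.0350) and likewise passed in 1 of those 6, while COL17A1 changed by -0.016. Of 13 tested ligands of other integrins NPNT rose by 0.24 (adjusted p = 0.0204) and MFGE8, a ligand of ITGAV receptors, fell by 0.31 (adjusted p = 0.0408), passing in 3 and 2 of those 6. Of the 5 tested tetraspanins, membrane proteins that bind laminin-binding integrins, 0 passed by edgeR, DESeq2 or limma-voom and 1, CD9, had an unadjusted p below 0.05.

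**Figure D4:**
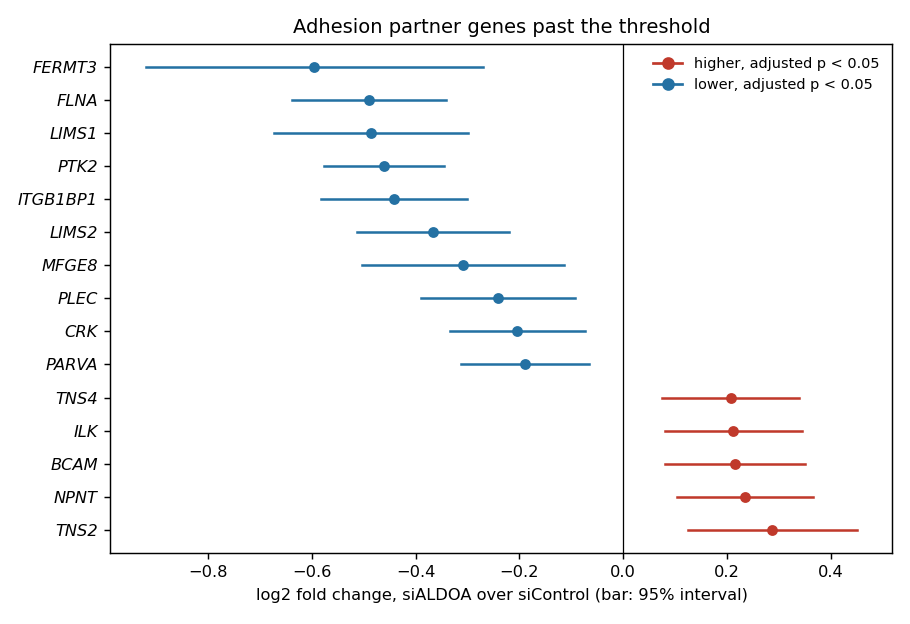
Log2 fold change with its 95% interval for the 15 adhesion partner genes past the threshold. The 10 genes in blue fell and the 5 in red rose, with FERMT3, FLNA, LIMS1 and PTK2 lowest.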

How the data were processed

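The authors mapped the RNA-Seq reads of HT29 cells with tophat2 (hg38), obtained read counts per gene with gfold and deposited these raw counts, 1 file per library. The annotation, strand setting and treatment of reads with several matches are not given in the sources used here, so antisense and overlapping genes cannot be told apart. All 6 libraries entered a fit without covariate in R 4.3.3 with edgeR 4.0.16 (filterByExpr, TMM, quasi-likelihood test, Benjamini-Hochberg adjustment over 15307 genes). Standard errors are the log2 fold change over the square root of F. Positions and lengths came from GENCODE 44 and promoters from RefSeq (GRCh38.p14). Alternatives used limma-voom 3.58.1, DESeq2 1.42.0 and the settings of the closing section, and the fit was tested on simulated data. Same-numbered libraries correlated by 0.035, 0.027 and 0.026 in their deviations from group means, and differently numbered ones by -0.046 to 0.022. The same-numbered values were thus the highest, though all were small, and they do not decide whether numbers mark pairs. The labels do not name pairs, so the main fit used none and a replicate block was an alternative. Ratios used python 3.11.15 and scipy 1.17.1. The chains, gene lists, pairs and tests were chosen with earlier results of these data known. The symbol rule matched 37 chains, of which 1 is not reported here and enters no count or median of the chains, though it stayed in the fit. All other tested chains were named, and partner genes were named where they passed, up to 5 per list by p, with a few others named after their values were seen.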

Additional observations from a re-analysis of the deposited data

How the results depend on the processing

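Besides edgeR's quasi-likelihood test, the comparison was run with its likelihood ratio test, DESeq2 and limma-voom, under library totals or upper quartiles for scaling, unfiltered or with 10 counts required in each library, without ribosomal RNA genes, and without each library in turn. Of 352 fold changes of chains recomputed with an adjusted p, 323 kept direction and side of the threshold, 2 lost it, 8 passed it and 19 turned direction. Another 5 from DESeq2 had no adjusted p. The number of chains that fell, 1, became 0 with library totals only and ranged from 0 to 1 when a library was left out, with 0 without siControl replicate 3. Partner genes that rose, 5, ranged from 0 (without siControl replicate 2) to 4, and those that fell, 10, were 5 with library totals and ranged from 5 (without siControl replicate 3) to 8. Of all tested genes 668 rose and 810 fell, against 896 and 279 with library totals. Leaving out a library gave 359 to 644 higher, lowest without siControl replicates 2 (359) and 3 (363), and 471 to 790 lower, lowest without siControl replicates 3 (471) and 2 (490). Some chains that had not passed turned direction, among them ITGB7, at -0.26 on the log2 scale with all libraries. With limma-voom ITGA9 was at -0.00063 on the log2 scale, and with library totals ITGAE was at 0.00088, ITGB1 at 0.0050, ITGB5 at 0.017 and ITGB6 at 0.029. With a library left out the log2 fold changes ranged from -0.15 to 0.27 for ITGA9, from -0.17 to 0.10 for ITGAE, from -0.028 to 0.094 for ITGAV, from -0.023 to 0.12 for ITGB4, from -0.43 to 0.028 for ITGB7 and from -0.057 to 0.12 for LAMA3. The log2 ratio differences ranged likewise from -0.041 to 0.12 for LAMB3 to LAMA3, from -0.13 to 0.11 for ITGB4 to ITGA6, from -0.17 to 0.0085 for ITGB5 to ITGAV and from -0.10 to 0.0056 for ITGA2 to ITGB1. The causes were not tested.

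Same-numbered libraries were not taken as pairs. With a replicate block 3 chains rose and 1 fell, 5 partner genes rose and 11 fell, and 987 tested genes rose and 1175 fell. At 3 libraries a group, chains under about 1 CPM had intervals too wide to show changes of the size seen in ITGA1.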
